A study of Mus musculus with 6 samples.

Results

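The snoRNA host noncoding RNAs are spliced transcripts whose introns carry small nucleolar RNAs (snoRNAs). The 10 members, Gas5, Snhg1, Snhg3, Snhg5, Snhg6, Snhg8, Snhg12, Snhg15, Zfas1 and Epb41l4aos, were taken by symbol from a count table of 55376 genes, and all 10 were found. After a filter on low counts 9 of them were among the 18054 genes tested, and Snhg3 was not. The libraries came from muscle stem cells sorted from C57BL/6 mice aged 3 months, with no genotype or treatment given, and were prepared by SMART-seq2, which makes cDNA along whole transcripts from little material. In RNA immunoprecipitation (RIP) an antibody pulls down a protein with the RNA attached to it. The 3 groups of 2 libraries were RIP with an antibody to CPEB4, RIP with IgG as the nonspecific control, and total input RNA without immunoprecipitation.

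A host transcript is made by RNA polymerase II and spliced. The excised introns are trimmed to snoRNAs, which stay in the nucleus and guide the modification of ribosomal RNA. Many of the spliced hosts leave the nucleus. Several begin with a terminal oligopyrimidine (TOP) tract, a C followed by a run of C or T bases, as the messages of ribosomal proteins do. They carry only short reading frames, and translation of these exposes several of them to nonsense-mediated decay, the pathway that degrades RNAs with early stop codons. CPEB4 is a cytoplasmic RNA-binding protein of the CPEB family, which binds U-rich elements in messages and regulates their poly(A) tails and translation.

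Total counts ran from 9018323 to 20843042 per library. Levels are given as CPM, counts scaled to a common library total with TMM factors, and a gene passed at an adjusted p under 0.05 in edgeR's quasi-likelihood test. The CPEB4 RIP pair and the input pair were each close (Pearson r of log CPM across genes 0.981 and 0.975), whereas the IgG RIP pair stood apart at 0.873. Each IgG RIP library correlated more closely with every library of the other groups (0.891 to 0.939) than with the other IgG RIP library. The series calls the CPEB4 RIP libraries biological replicates without naming animals, so the tests see only how far these libraries vary, and that spread may be technical in part. Of the 10 stem cell markers all were detected, the lowest at a mean of 63.7 CPM. Summed CPM of 6 erythroid markers was 658 and 328 after CPEB4 RIP, 88.0 and 147 after IgG RIP and 109 and 179 in input, and 3 of the 5 tested rose over IgG. That of 7 fibro-adipogenic markers was 2013 and 1530, 959 and 1367, and 647 and 849, with 1 of 7 higher. The sums for endothelial (7 genes), leukocyte (8) and myofibre (8) markers in CPEB4 RIP, IgG RIP and input were 162 to 229, 169 to 195 and 191 to 208 CPM, then 58.7 to 74.6, 35.2 to 52.3 and 34.1 to 40.4 CPM, and 180 to 230, 119 to 153 and 126 to 173 CPM. Of these lists 0 of 7, 1 of 7 and 3 of 8 tested genes rose over IgG, and no marker was at 0 in every library. Whether RNA of other cells had a part in the results was not tested, and in bulk RNA fewer cells of a type and less RNA per cell cannot be told apart.

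The start sequences are shown because the TOP tract is the feature that links these RNAs to ribosomal protein messages. RefSeq (GRCm38.p6, the mm10 assembly) had 9 annotated starts for 8 members. Each line gives 30 bases, 10 before the annotated start and 20 from it, and capitals mark the longest run of at least 5 C or T bases that begins with C within 10 bases of the start.
Gas5, first start, chr1:161034591-161034620, plus strand: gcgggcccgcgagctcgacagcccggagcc
Gas5, second start, chr1:161035156-161035185, plus strand: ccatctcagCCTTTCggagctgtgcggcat
Snhg8, chr3:123508317-123508346, minus strand: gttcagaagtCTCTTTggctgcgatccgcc
Snhg12, chr4:132308668-132308697, plus strand: ttctcagtCCTTTCTCgcttcatccgcggt
Snhg3, chr4:132353667-132353696, minus strand: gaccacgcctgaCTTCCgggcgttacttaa
Snhg5, chr9:88522878-88522907, minus strand: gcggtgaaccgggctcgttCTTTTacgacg
Snhg1, chr19:8723477-8723506, plus strand: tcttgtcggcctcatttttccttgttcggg
Snhg15, chr11:6528741-6528770, minus strand: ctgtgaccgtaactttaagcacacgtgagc
Zfas1, chr2:167062924-167062953, plus strand: tgcgccccgggcggccgcaggtctcggctg

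A run of at least 5 pyrimidines headed by C lay exactly at 2 of the 9 annotated starts (22.2%), those of Snhg8 and the second of Gas5. The share was 19.5% of 77 starts of ribosomal protein genes and 2.51% of all 32851 starts. Within 10 bases of the start such a run was found at 5 of the 9, against 55.8% of ribosomal protein starts and 30.2% of all starts. The starts of Snhg1, Snhg15 and Zfas1 and the first of Gas5 had none in that window. These are matches of letters at annotated starts, which need not be the starts used in these cells.

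Of the 9 host RNAs tested, 5 were recovered at higher levels with the CPEB4 antibody than with IgG, and 0 fell. Of all genes tested, 8.21% passed in this comparison, 4.79% higher and 3.42% lower. Zfas1, Epb41l4aos, Snhg8, Snhg1 and Snhg15 were the 5, by 1.85-fold to 2.90-fold over IgG, and the same 5 rose over input, where 8% of all genes were called higher and 12.7% passed in either direction. Snhg6 alone among the 9 was below input, at 0.351 of its input level. The median log2 fold change of the 9 was 0.89 over IgG and 0.93 over input, where the medians of all genes were -0.07 and -0.06.

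Zfas1 (chromosome 2, 167062934 to 167065862) lies head to head with Znfx1 and hosts Snord12. Its level was 31.9 and 33.8 CPM after CPEB4 RIP, 11.6 and 11.0 after IgG RIP, and 12.2 and 11.2 in input. Both CPEB4 RIP libraries were high, and the other 4 lay close together. The log2 fold change was 1.54 over IgG (SE 0.23, adjusted p = 0.0141) and 1.48 over input (SE 0.23, adjusted p = 0.00808), both by edgeR's quasi-likelihood test, the widest rises among the members in both comparisons.

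Epb41l4aos (chromosome 18, 33794892 to 33795989) is named for the opposite strand of its neighbour Epb41l4a, a gene for a protein of the band 4.1 family. It stood at 42.7 and 51.1 CPM after CPEB4 RIP, 16.4 and 20.5 after IgG RIP, and 21.9 and 16.9 in input. No control library came near the CPEB4 RIP libraries. The log2 fold change of Epb41l4aos was 1.34 over IgG (SE 0.25, edgeR adjusted p = 0.0210) and 1.27 over input (SE 0.24, adjusted p = 0.0160). Epb41l4a itself was at -0.15 over IgG (adjusted p = 0.879).

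Snhg8 (chromosome 3, 123507552 to 123508336) hosts the H/ACA snoRNA Snora24. CPM was 30.7 and 30.3 after CPEB4 RIP, 14.3 and 12.2 after IgG RIP, and 13.4 and 12.3 in input. The replicates of each group were close, and both controls lay at the same low level. The change over IgG was 1.21 on the log2 scale (SE 0.24, edgeR adjusted p = 0.0259) and over input 1.25 (SE 0.24, adjusted p = 0.0156). Fitted on the 4 libraries of the IgG comparison alone it did not pass (adjusted p = 0.0567).

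Snhg1 (chromosome 19, 8723487 to 8726326) contains 8 annotated snoRNA genes, one of them Snord22. It was measured at 111 and 146 CPM after CPEB4 RIP, 53.8 and 69.5 after IgG RIP, and 57.6 and 70.6 in input. The CPEB4 RIP libraries differed more from each other here than for the other rising members, yet neither overlapped a control. Log2 fold changes were 1.06 over IgG (SE 0.22, edgeR adjusted p = 0.0307) and 1.004 over input (SE 0.22, adjusted p = 0.0248). The neighbouring gene Slc3a2, the heavy chain of amino acid transporters, moved the other way, with 426 and 429 CPM after CPEB4 RIP, 770 and 698 after IgG RIP, and 970 and 942 in input. Its log2 fold change was -0.78 over IgG (edgeR adjusted p = 0.0164) and -1.16 over input (adjusted p = 0.00287).

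Snhg15 (chromosome 11, 6525591 to 6528760) encloses 1 snoRNA gene. Its libraries read 147 and 154 CPM after CPEB4 RIP, 87.0 and 75.7 after IgG RIP, and 93.5 and 104 in input. The groups did not overlap, and the gap to input was narrower than the gap to IgG. It rose by 0.89 over IgG (log2, SE 0.16, edgeR adjusted p = 0.0201) and by 0.61 over input (SE 0.16, adjusted p = 0.0446). The call over input was lost with DESeq2 size factors (adjusted p = 0.0671), with library size alone (0.141), with a minimum mean count of 20 (0.0766) and with limma on log2(FPKM + 0.1) (0.158).

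**Figure D1:**
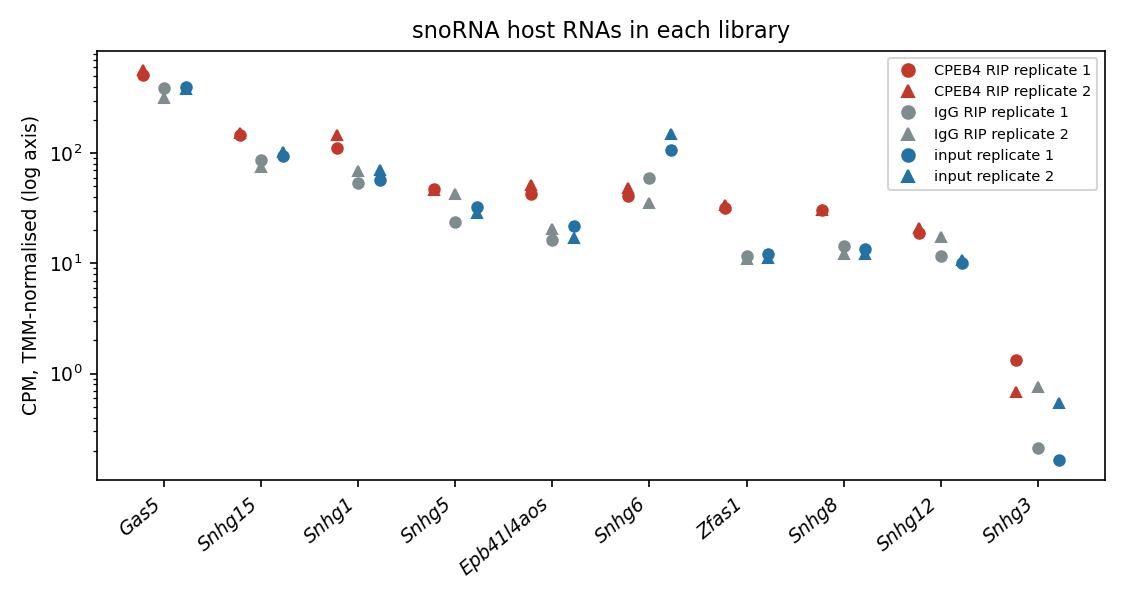
TMM-normalised CPM (log axis) of the 10 host RNAs in each of the 6 libraries; circles are replicate 1 and triangles replicate 2. In 8 members both CPEB4 RIP libraries (red) sit above the 4 others, in Snhg6 the 2 input libraries (blue) are highest, and Snhg3 lies near 1 CPM or below.

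Gas5 (chromosome 1, 161034601 to 161038539), named for its accumulation in growth-arrested cells, holds 8 annotated snoRNA genes. It stood at 509 and 566 CPM after CPEB4 RIP, 388 and 316 after IgG RIP, and 399 and 384 in input. Both CPEB4 RIP libraries were above every control library, but the gap was small. The log2 fold change of 0.61 over IgG (SE 0.15) had an adjusted p of 0.0525 and that of 0.46 over input (SE 0.15) an adjusted p of 0.0966 in edgeR's test, so neither passed. Over IgG it passed in 5 of the 10 other settings that kept all replicates, among them DESeq2 (adjusted p = 0.00966).

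Snhg5 (chromosome 9, 88521052 to 88522897), host of the U50 snoRNA, stood at 47.7 and 46.4 CPM after CPEB4 RIP, 23.6 and 43.0 after IgG RIP, and 32.2 and 28.9 in input. Snhg12 (chromosome 4, 132308678 to 132311024), with 4 snoRNA genes inside, stood at 18.9 and 20.9 CPM after CPEB4 RIP, 11.7 and 17.2 after IgG RIP, and 10.2 and 10.7 in input. In both genes IgG RIP replicate 2 was high and near the CPEB4 RIP libraries, whereas replicate 1 was low. Log2 fold changes over IgG were 0.49 for Snhg5 (edgeR adjusted p = 0.311) and 0.46 for Snhg12 (adjusted p = 0.341), and over input 0.62 (0.206) and 0.93 (0.0750). Without IgG RIP replicate 2 the values over IgG were 1.13 and 0.90, and without replicate 1 they were 0.31 and 0.39. Such fits leave IgG RIP a single library and take their spread from the closer pairs of the other groups. Trnau1ap, a selenocysteine tRNA-associated protein gene beside Snhg12, rose by 0.998 over IgG (adjusted p = 0.0246) and was at 0.55 over input (adjusted p = 0.109).

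Snhg3 (chromosome 4, 132351933 to 132353686), host of the U17 snoRNAs, had 16 and 13 counts after CPEB4 RIP, 2 and 10 after IgG RIP, and 3 and 7 in input. At this depth no difference was detectable. With no low-count filter its log2 fold change over IgG was 1.06 with a larger SE of 1.31 (edgeR adjusted p = 0.816).

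In 8 of the 9 members both CPEB4 RIP libraries exceeded all 4 control libraries, a pattern that 22.1% of all genes tested showed. Taken against 1 control at a time, the same 8 lay above both IgG RIP libraries, as 29.4% of genes did, and above both input libraries, as 34.4% did. Both comparisons use the same CPEB4 RIP libraries. The 5 members that passed in both compare with 3.57% of genes that were called higher in both. These calls needed both CPEB4 RIP libraries: without replicate 1 or without replicate 2, 0 members passed over IgG, where 204 and 0 of all genes did (2976 and 2312 at an unadjusted p under 0.05). Most calls over input, among members and among all genes, were lost without 1 CPEB4 RIP or input library, which leaves that group 1 library. The call of Snhg6 over input was lost in each of these fits. With any 1 library left out, the log2 fold changes of the 5 over input stayed between 0.55 and 1.64. That of Snhg6 stayed between -1.71 and -1.24. The log2 fold changes of the 5 stayed between 0.90 and 1.79 in every fit over IgG that left out 1 library. Without IgG RIP replicate 2, 8 members passed, and without replicate 1, 6 did, in fits where 7405 and 7710 of all genes passed.

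**Figure D2:**
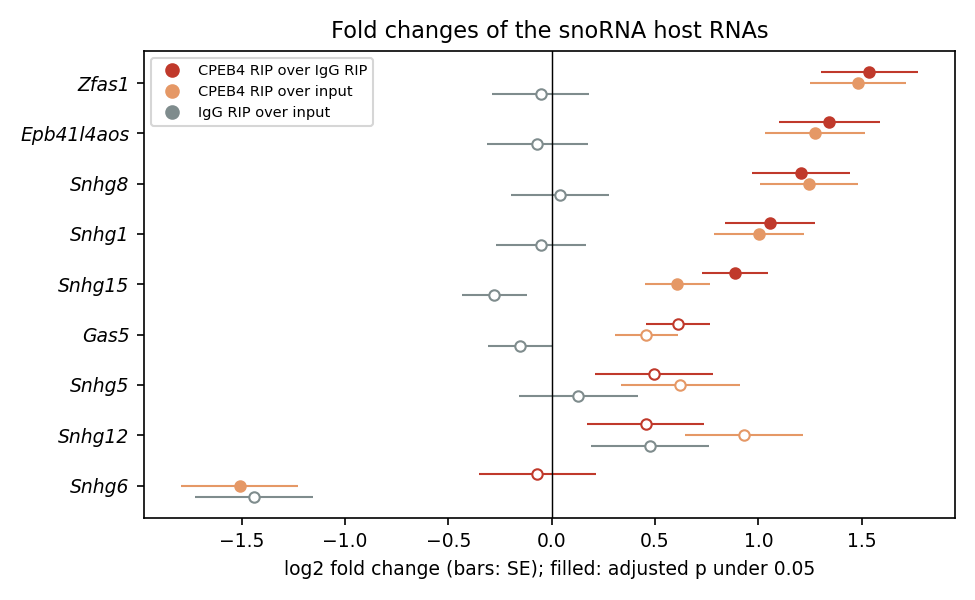
Log2 fold changes of the 9 tested members with their SE (bars) for the 3 comparisons; filled circles have an adjusted p under 0.05 (edgeR). Zfas1 to Snhg15 are filled for both CPEB4 RIP comparisons, and Snhg6 is at -1.51 for CPEB4 RIP over input and -1.44 for IgG RIP over input.

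Snhg6 (chromosome 1, 9942025 to 9944118), host of the C/D box snoRNA U87, was the exception. Its level was 40.9 and 48.9 CPM after CPEB4 RIP, 59.2 and 35.3 after IgG RIP, and 107 and 149 in input. All 4 immunoprecipitated libraries were below both input libraries, as in 12.2% of genes, and the RIP groups overlapped each other. CPEB4 RIP was at -1.51 on the log2 scale against input (SE 0.28, edgeR adjusted p = 0.0153), the single member called lower, where 4.7% of all genes were called lower. Against IgG it was at -0.07 (SE 0.28, adjusted p = 0.900). IgG RIP was at -1.44 against input (SE 0.28, adjusted p = 0.199), which did not pass. That value passed with DESeq2 (-1.46, adjusted p = 1.92e-04), where 706 of all genes passed. It was -1.98 without IgG RIP replicate 1 and -1.18 without replicate 2, fits that leave IgG RIP a single library.

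A pair of annotated features share the Snhg6 locus. Snord87, the 74-base gene of the U87 snoRNA (chromosome 1, 9942470 to 9942543), lies inside Snhg6. Its counts were 4 and 2 after CPEB4 RIP, 43 and 14 after IgG RIP, and 170 and 87 in input. The order of the groups was clear, with input highest and CPEB4 RIP nearly empty. In CPM the means were 0.218 ± 0.160, 2.82 ± 2.49 and 8.02 ± 1.73 (SD, n = 2 each). The log2 fold change of Snord87 was -5.24 over input (SE 0.94, edgeR adjusted p = 0.0133) and -3.72 over IgG (SE 0.93, adjusted p = 0.0515). The value over IgG passed in 6 of the 10 other settings that kept all replicates and that over input in 9, the exception being limma on log2(FPKM + 0.1) (adjusted p = 0.0570). Over input it did not pass without CPEB4 RIP replicate 1 (0.0651) or 2 (0.152) or without input replicate 1 (0.0886) or 2 (0.0646). For every 100 counts on Snhg6 there were 0.810 and 0.215 on Snord87 after CPEB4 RIP, 7.75 and 2.99 after IgG RIP, and 8.62 and 4.56 in input. The share was lowest in both CPEB4 RIP libraries. Whether the change differs between Snord87 and its host was not tested. Whether reads on Snord87 came from the trimmed snoRNA or from host RNA that still held the intron was not tested either.

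Mcmdc2, a meiosis gene, overlaps Snhg6 over 1582 bases. It stood at 0.414 and 0.263 CPM after CPEB4 RIP, 2.67 and 3.17 after IgG RIP, and 2.01 and 2.34 in input, and fell in CPEB4 RIP over both IgG (-3.10, SE 0.70, edgeR adjusted p = 0.0398) and input (-2.68, SE 0.69, adjusted p = 0.0450). These calls rest on few reads, 5 in each CPEB4 RIP library, and they were lost with no filter (adjusted p = 0.0514 and 0.120) and without either CPEB4 RIP library (0.282 to 0.478) or either input library (0.108 to 0.247). On log2(FPKM + 1) with limma the values shrank to -0.36 (adjusted p = 0.110) and -0.28 (0.173) and on log2(FPKM + 0.1) to -1.62 (0.0567) and -1.37 (0.0596), and the call over IgG was also lost in the fit of its 4 libraries alone (0.0719). Unlike Snhg6, Mcmdc2 was not lower in IgG RIP than in input. Neither the strand setting of the counts nor the treatment of overlapping genes is given in the sources used here. Reads of the 2 genes may therefore not be separable, and the part of Mcmdc2 in the Snhg6 values was not tested. Shorter overlaps exist between Gas5 and Zbtb37 (264 bases) and between Zfas1 and Znfx1 (82 bases). Group means of Zbtb37 were at most 3.05 CPM and those of Znfx1 8.66 to 11.0 CPM, and neither gene passed the test in either CPEB4 RIP comparison.

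**Figure D3:**
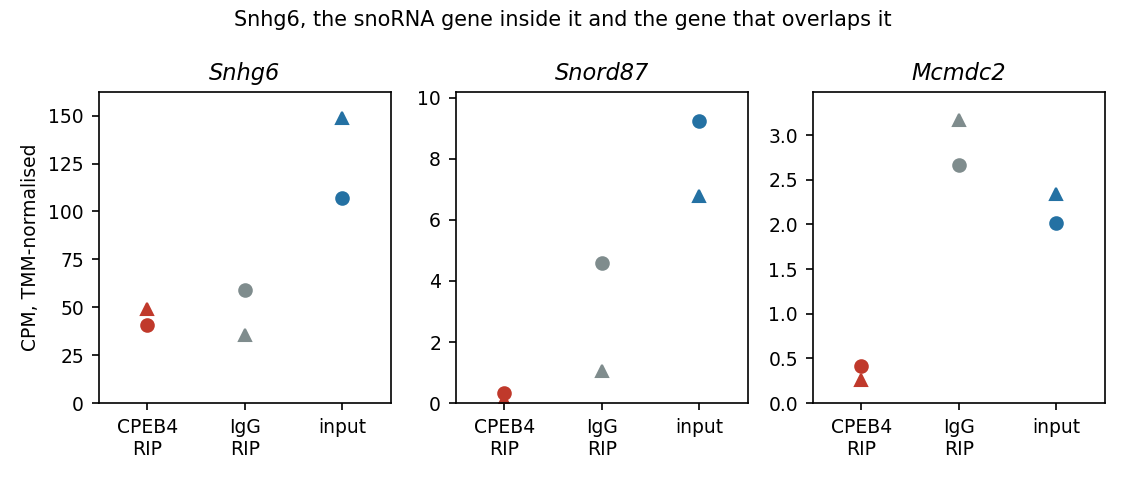
TMM-normalised CPM of Snhg6, of Snord87 inside it and of Mcmdc2, which overlaps it, in each library (circles replicate 1, triangles replicate 2; each axis starts at 0). Snhg6 and Snord87 are highest in both input libraries, whereas Mcmdc2 is low only in CPEB4 RIP.

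Few reads lay on the enclosed snoRNAs that could be looked up. RefSeq places 31 snoRNA genes inside the 10 members, 13 of them under a symbol of the count table, and 3 of these 13 had any count. Snord47, the single enclosed snoRNA of Gas5 that could be looked up, and Snord22 in Snhg1 had 0 counts in every library. Beside Snord87 they were Gm23639 in Epb41l4aos, with 1 and 7 counts after CPEB4 RIP, 5 and 0 after IgG RIP, and 29 and 13 in input, and Gm23201 in Zfas1, with 1 and 1, 0 and 9, and 3 and 4. Gm23639 stood at -2.42 over input (SE 1.48, edgeR adjusted p = 0.331), while its host rose. Over all 1047 snoRNA features of the table, reads amounted to 31.9 and 28.2 CPM of total counts after CPEB4 RIP, 84.7 and 43.0 after IgG RIP, and 133 and 123 in input. Both CPEB4 RIP libraries were lowest and both input libraries highest. No test of these sums was run. Counts on a snoRNA feature need not be the trimmed snoRNA, since longer RNA that still holds its sequence can give them too.

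Levels can be compared between members only per length, in the deposited FPKM, which divides fragments by transcript length and library size. In input Snhg6 (80.0 ± 17.4) and Gas5 (74.7 ± 3.04) were highest and overlapped, followed by Snhg15 (52.0 ± 3.11), Epb41l4aos (32.3 ± 6.31), Snhg1 (15.5 ± 2.02), Snhg5 (12.7 ± 1.15), Snhg8 (10.8 ± 0.838), Zfas1 (4.43 ± 0.322), Snhg12 (3.12 ± 0.0710) and Snhg3 (0.257 ± 0.194; SD, n = 2 each). In CPEB4 RIP the order was Gas5 (103 ± 5.75), Snhg15 (79.6 ± 0.848) and Epb41l4aos (78.4 ± 8.43), then Snhg1 (31.1 ± 5.30), Snhg6 (28.2 ± 2.98), Snhg8 (25.8 ± 0.782), Snhg5 (19.6 ± 0.755), Zfas1 (12.4 ± 0.278), Snhg12 (5.96 ± 0.313) and Snhg3 (0.737 ± 0.346). Neighbours in that order overlapped for Snhg15 with Epb41l4aos, for Snhg1 with Snhg6 and for Snhg6 with Snhg8. In IgG RIP the means were 63.2 ± 6.79 for Gas5, 40.4 ± 2.503 for Snhg15, 29.1 ± 5.57 for Epb41l4aos, 27.7 ± 8.92 for Snhg6, 14.1 ± 3.03 for Snhg1 and 13.1 ± 5.87 for Snhg5. Below these came Snhg8 (10.5 ± 0.809), Snhg12 (4.10 ± 1.24), Zfas1 (4.03 ± 0.00208) and Snhg3 (0.337 ± 0.275). The libraries of Epb41l4aos and Snhg6, of Snhg1 and Snhg5, of Snhg5 and Snhg8, and of Snhg12 and Zfas1 overlapped in this group. From input to CPEB4 RIP, Snhg6 thus moved from the head of the order to the middle, and Epb41l4aos drew level with Snhg15. Together the 10 members took 0.0934% and 0.1002% of all counts after CPEB4 RIP, 0.0692% and 0.0560% after IgG RIP, and 0.0843% and 0.0812% in input, and Gas5, uncorrected for length, made up between 48.7% and 58.3% of their counts.

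Between IgG RIP and input 0 of the 9 members passed in edgeR, which does not show that their levels were equal. Snhg6 had the largest difference. Among all genes 0 of 18054 (0%) passed in edgeR, where 2550 had an unadjusted p under 0.05 and DESeq2 called 706. Leaving out Snhg6, the log2 differences of IgG RIP from input ran from -0.28 in Snhg15 to 0.48 in Snhg12, with SE of 0.15 to 0.29. The signs of the differences of Snhg5, Snhg8 and Epb41l4aos changed between settings.

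Messages of ribosomal proteins, the best known TOP messages, were higher after CPEB4 RIP in most cases. Of 83 tested, 70 rose over IgG and 0 fell, with a median of 1.01, and 78 rose over input, with a median of 1.49. The stalk protein message Rplp0 (2.04), Rps2 (1.92) and Rpl12 (2.10) had the smallest p over IgG. Other TOP messages had 7 of 23 higher and 0 lower over IgG at a median of 0.44, led by Tpt1 (2.16), the translationally controlled tumour protein, the ribosomal scaffold Rack1 (1.02) and the initiation factor subunit Eif3f (1.15). Over input, 14 of these 23 were higher and 1 lower, at a median of 0.92. Ribosomal protein genes have near-identical pseudogenes and the handling of multi-mapped reads is unknown here, so single values of that list are uncertain.

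Introns of protein-coding genes carry snoRNAs too. Of 38 such hosts tested, 21 rose and 5 fell over IgG, at a median of 0.81, and 26 rose and 4 fell over input. Split after the values were seen, 18 of the 21 that encode ribosomal proteins rose and 0 fell, at a median of 1.04, whereas the 17 others had 3 higher and 5 lower, at a median of -0.02. Over input all 21 of the former rose (median 1.56), and the 17 others had 5 higher and 4 lower (median -0.04). The difference between these subsets was not tested. The 3 higher over IgG were Tpt1, Rack1 and the elongation factor subunit Eef1b2. The 5 lower over IgG, named after their values were seen, were Hspa8 (-1.27), Ncl (-1.09), Nop56 (-0.82), Hspa9 (-0.75) and Wdr43. Hspa8 and Hspa9 are chaperones, and Ncl (nucleolin) and Nop56 are nucleolar proteins.

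Further noncoding hosts from the same family did not pass. Of 10 listed, 9 were tested, and 0 were called over IgG or over input, at medians of 0.32 and 0.06. At the smallest p over IgG were Snhg4 (0.67, edgeR adjusted p = 0.151), Snhg14 (-1.99, adjusted p = 0.161) and Snhg18 (1.59, adjusted p = 0.208). Their mean levels in CPEB4 RIP were 33.6, 0.890 and 4.99 CPM, so the latter pair had little depth. Snhg4 lay at 32.9 and 34.3 CPM after CPEB4 RIP, 25.6 and 16.9 after IgG RIP, and 29.1 and 35.2 in input, overlapping input.

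The proteins that assemble snoRNAs into particles had 1 of 17 messages higher and 2 lower over IgG, at a median of -0.37, and 5 higher and 2 lower over input, at a median of -0.04. Nhp2, a core H/ACA protein, rose over IgG (0.65), and the C/D core protein Nop56 (-0.82) and the assembly factor Ruvbl1 (-1.09) fell. Messages of 20 factors of nonsense-mediated decay had 1 higher, the termination factor Etf1 (0.91), and 0 lower over IgG, at a median of -0.01, and 3 higher and 0 lower over input, at a median of 0.45. Noncoding RNAs held in the nucleus had 0 of 9 higher and 3 lower over IgG, at a median of -0.20, and the same counts over input, at a median of -0.94. In each comparison 6 of the 9 did not pass. Kcnq1ot1 (-1.94), Rian (-1.12) and Meg3 (-1.09) were those with the smallest p.

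**Figure D4:**
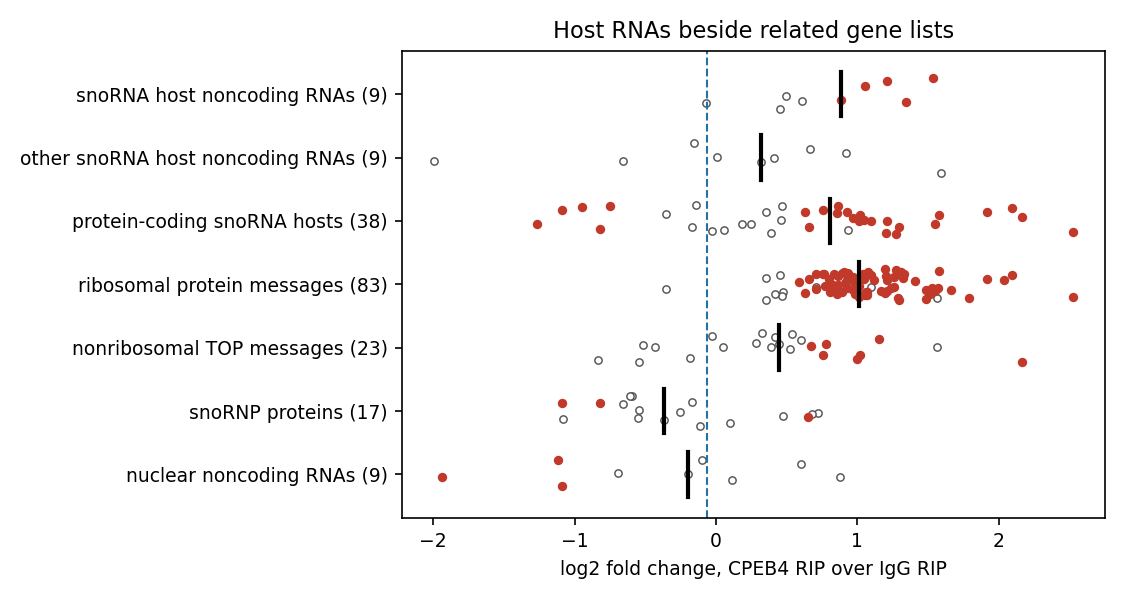
Log2 fold change of CPEB4 RIP over IgG RIP for each tested gene of 7 lists (numbers tested in parentheses); red circles have an adjusted p under 0.05, black bars are list medians and the dashed line is the median of all genes (-0.07). Host RNAs have a median of 0.89 and ribosomal protein messages of 1.01, and the lists share some genes.

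Among 7397 genes with a mean of at least 10 CPM, the 10 whose centred log2 profile over the 6 libraries lay nearest to the members' median profile all encode proteins, and 0 of them are on the list of cytoplasmic ribosomal proteins. At most 83 of the genes searched are on that list, so 0 among 10 says little about likeness to it. Prdx4, an antioxidant enzyme of the endoplasmic reticulum, was nearest (Euclidean distance 0.142), followed by the complex I subunit Ndufb10 (0.143), Szrd1, Ube2e2 and the mitochondrial ribosomal protein Mrps16. Prdx4 had a log2 fold change of 0.88 over IgG and 0.84 over input. Snhg15 (0.278) and Gas5 (0.353) were the members nearest to their own median profile, and Snhg6 (2.33) was the farthest, with 96.1% of the genes searched lying closer. The profile was built from these same libraries and the distance is a description.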

How the data were processed

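RNA was measured in 6 libraries of 3 groups, each library assigned by its title. Per the submitters' processing notes the tools were HISAT2 and featureCounts on mm10; the sources used here give no versions, gene annotation, strand setting or rule for multi-mapped reads. The deposited table holds raw counts per gene. The authors' second table holds FPKM; its values equal the counts divided by 1 length per gene and 1 constant per library, in 100% of 187227 values within 0.1%, and what total sets that constant is not given.

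Counts were fitted in R 4.3.3 with edgeR 4.0.16 (filterByExpr, minimum count 10 and minimum total 15; TMM; glmQLFit on all 6 libraries with group as the only term, 3 residual degrees of freedom; glmQLFTest, two-sided; Benjamini-Hochberg over 18054 genes). SE is the absolute log2 fold change over the square root of F. Alternatives used DESeq2 1.42.0 and limma 3.58.1. In simulated data for CPEB4 RIP with IgG RIP, 200 of 18054 genes were changed and 16665 genes entered the fit. The test recovered 9% of 2-fold and 39% of 4-fold changes, and 5.88% of its 51 calls were false. Changed genes lost to the filter counted as missed. The share changed was smaller than the 8.21% called in the data, so these rates are not the power of the reported test. Counts carry no molecular identifiers, so depth limits counting error only.

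Members, lists and tests were chosen with earlier results of these data known. Named were all members, up to 3 genes per list with the smallest p over IgG, neighbours within 5 kb by RefSeq coordinates, and the nearest profiles; profiles used log2(CPM + 1). Other names were chosen after their values were seen. One neighbouring gene is not reported here.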

Additional observations from a re-analysis of the deposited data

How the results depend on the processing

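Over IgG, 5 members passed, against 6 with the replicate block (Gas5 joined, adjusted p = 0.0295), 0 with limma on log2(FPKM + 0.1), and 0 to 8 with 1 library left out. Over input, 5 higher became 0 with log2(FPKM + 0.1), 8 with only the 4 libraries compared, 5 with the block, and 0 to 8 with 1 library left out; 1 lower became 0 with log2(FPKM + 0.1) and 0 to 1 with a library left out. Without either input library the members' calls over input were lost, as were most of those among all genes. For IgG RIP with input, 0 lower became 1 (Snhg6) with DESeq2, 1 with no filter and 0 to 1 with a library left out. A fit without 1 IgG RIP library takes its spread from the closer pairs.

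All genes called over IgG numbered 1482 as reported, 2892 with DESeq2, 2428 with no filter, 973 with the 4 libraries, 0 with log2(FPKM + 0.1) (4644 unadjusted), 1850 with the block, and 0 to 7710 with 1 library left out. Over input they were 2294 as reported, 3479 with DESeq2, 7340 with the 4 libraries, 0 with log2(FPKM + 0.1) (4993 unadjusted), 2615 with the block, and 117 to 7966. For IgG RIP with input they were 0 as reported, 706 with DESeq2, 457 with no filter, 25 with the block, 1 with log2(FPKM + 1), 10 with log2(FPKM + 0.1), and 0 to 6657. Same-numbered libraries did not deviate together (correlations -0.0160, 0.133 and 0.0697), so numbers are not taken as pairs. The block ended both Mcmdc2 calls (adjusted p = 0.0601 against IgG, 0.0757 against input). Higher genes were 58.3% of calls over IgG and 63.0% over input, and with library size alone 46.8% and 43.7%, where the medians of all genes were -0.15 and -0.27. With a mean count of at least 20 they were 47.3% and 49.9%.

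Sign changes were limited to fold changes that lay near 0 in the reported fit and did not pass, and their cause was not tested. With a library left out some lay further from 0, as the ranges below show. Snhg6 over IgG was 0.0579 and 0.0550 with log2(FPKM + 0.1) and log2(FPKM + 1), 0.00323 without mitochondrial genes, 0.0330 with no filter, and -0.26 to 0.53 with a library left out. For IgG RIP over input, Snhg5 was -0.0320 with library size alone, -0.0228 and -0.0167 with FPKM + 0.1 and FPKM + 1, and -0.45 to 0.37 with a library left out. Snhg8 was -0.0924 with library size, -0.0459 and -0.0423 with FPKM + 0.1 and FPKM + 1, -0.0296 with a mean count of at least 20, -0.0394 without mitochondrial genes, -0.0404 with the 4 libraries and -0.21 to 0.0770 with a library left out, and Epb41l4aos -0.37 to 0.0149. The count of starts with a pyrimidine run went from 2 to 5 with the wider window.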
